A study of Rattus norvegicus with 8 samples.

Results

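A set of 7 genes known from chondrocyte hypertrophy and from the mineralization of cartilage and bone was followed in primary rat chondrocytes treated with TNFα and with U0126, an inhibitor of the kinases MEK1/2, which activate ERK1/2. The 7 genes were Spp1, Ibsp, Alpl, Enpp1, Mgp, Pth1r and Ihh, of 14217 genes that the arrays measured with a probe set of their own. They were chosen by name, with earlier results of these data known. Every probe set whose annotation names only 1 of them was taken, which gave 8 probe sets, 2 of them for Pth1r and 1 for each other gene. Cells came from the femoral condyles of neonatal Sprague Dawley rats and were grown as a monolayer, with the deeper cartilage left behind to avoid hypertrophic chondrocytes, as the methods state. After a night without serum they were given U0126 or its solvent DMSO for 30 min and then human recombinant TNFα at 30 ng/ml or its vehicle, bovine serum albumin, for 24 h. The 4 treatments are called U0126 with TNFα, TNFα (after DMSO), U0126 (followed by vehicle) and DMSO (followed by vehicle), and each was measured on 1 Affymetrix RAT230_2.0 array in each of 2 independent experiments.

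As a growth plate chondrocyte matures it enlarges, switches to type X collagen and prepares its matrix for mineral. Indian hedgehog, encoded by Ihh, is secreted by cells entering this stage, and parathyroid hormone-related protein acting on the receptor encoded by Pth1r holds younger cells back from it. Mineral forms when phosphate is freed near matrix vesicles by the alkaline phosphatase encoded by Alpl, while Enpp1 makes pyrophosphate, which blocks crystal growth, and the secreted matrix Gla protein, encoded by Mgp, also keeps cartilage from calcifying. Osteopontin, encoded by Spp1, and bone sialoprotein, encoded by Ibsp, are secreted acidic phosphoproteins that bind mineral and integrins.

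Intensities below are array values on a linear scale, centred on the median of each array, and are given for experiments 1 and 2 in that order. A fold is the ratio of 2 arrays of the same experiment. Across all arrays the deposited values lie between 15.2 and 34845, and detection calls were not used, so whether a dim probe set lies above background is unknown. The cells carried high intensities of the chondrocyte markers Col2a1 (24282 to 32103) and Acan (7741 to 23393), which encode type II collagen and aggrecan. Type X collagen, encoded by Col10a1 and the defining marker of hypertrophic cells, lay between 160.1 and 175.7, and the osteoblast product osteocalcin, encoded by Bglap, between 63.25 and 77.0. Of the same marker lists, the collagenase gene Mmp13 (hypertrophic) lay between 378.1 and 17892 and Col1a1 (osteoblast), which encodes a chain of type I collagen, between 28732 and 34888. Fibroblast and smooth muscle markers were also present. Col3a1 lay between 18503 and 26833, Pdgfra between 10629 and 21054 and Tagln between 4720 and 8332. Acta2 lay between 2869 and 4907 and Thy1 between 853.4 and 1666. Of 5 hypertrophic chondrocyte markers 1 rose (Mmp13) and none fell with TNFα over DMSO. Among marker lists of other cells, none of 4 osteoblast, 3 osteoclast and 4 endothelial genes passed with TNFα over DMSO, and 1 of 5 fibroblast and smooth muscle genes rose (Pdgfra), beside 599 that rose and 301 that fell of all 14217 genes.

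Spp1 and Ibsp encode related proteins and lie close to each other on rat chromosome 14. The order is Pkd2, Spp1, Mepe, Ibsp, Dmp1, Dspp, Sparcl1 in the RefSeq annotation of GRCr8. Only Spp1 passed a test with TNFα. Ibsp lay between 31.84 and 40.36, and only 4.03% of probe sets had a mean at or below its own, so a response of Ibsp could have gone unseen. Stretches of 300 bases around the RefSeq start sites of Spp1 and Ibsp, most of it before the start, are shown because these neighbours gave such different values. They are Spp1 at chr14:5619755-5620054 and Ibsp at chr14:5757193-5757492, both on the minus strand, printed 5′ to 3′. Matches to TGNGGT, a loose form of the Runx core motif in which N is any base, are in capitals, as they read on the printed strand.
Spp1: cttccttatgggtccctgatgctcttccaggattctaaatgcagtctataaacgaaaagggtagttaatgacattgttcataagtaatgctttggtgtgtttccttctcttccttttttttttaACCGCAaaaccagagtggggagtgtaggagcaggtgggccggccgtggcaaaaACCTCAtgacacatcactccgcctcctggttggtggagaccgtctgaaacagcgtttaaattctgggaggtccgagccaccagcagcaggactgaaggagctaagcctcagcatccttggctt
Ibsp: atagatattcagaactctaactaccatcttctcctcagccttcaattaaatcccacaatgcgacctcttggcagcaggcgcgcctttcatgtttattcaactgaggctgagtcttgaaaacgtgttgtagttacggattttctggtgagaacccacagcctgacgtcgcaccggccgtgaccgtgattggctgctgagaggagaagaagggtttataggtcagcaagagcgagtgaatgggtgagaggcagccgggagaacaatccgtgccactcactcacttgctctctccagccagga
Runx2 and Runx3 drive chondrocyte hypertrophy. The loose form of the family's motif was found on the opposite strand at 2 places before the Spp1 start site, and at none in the Ibsp stretch. These were from base -126 to -121 (TGCGGT) and from base -73 to -68 (TGAGGT). Such a match is common, since 47.1% of 33469 promoter stretches of this length hold it on either strand. Neither stretch holds the Egr motif GCGGGGGCG (2.73% of stretches), the AP-1 motif TGANTCA (7.33%) or the NFκB consensus (4.18%), searched on both strands. RefSeq promoter stretches were found for 4 of the 7 genes, and those of Alpl and Pth1r held none of the 4 motifs. These are matches of letters, and factor binding was not measured here.

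The first comparison asked how TNFα changed the 7 genes when MEK/ERK signalling was free to act. Spp1 rose and Enpp1 and 1 of the 2 Pth1r probe sets fell, while Ibsp, Alpl, Mgp and Ihh did not pass the test. This is 3 of the 8 probe sets, where 5.19% of all 31042 tested probe sets passed (3.41% higher and 1.78% lower), by limma with a term for the experiment and a Benjamini-Hochberg adjusted p under 0.05. At an unadjusted p under 0.05 there were 5 of the 8, against 25.9% of all probe sets. The values of TNFα and DMSO did not overlap for 6 of the 8 probe sets, against 41.0% of all probe sets. The median log2 fold change of the 7 genes was -0.26, and that of all 14217 genes was -0.01. The 7 genes were chosen with earlier results of these data known, so these shares describe them and do not test the set. Since whole cultures were measured, fewer cells of a type and less RNA per cell cannot be told apart.

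**Figure D1:**
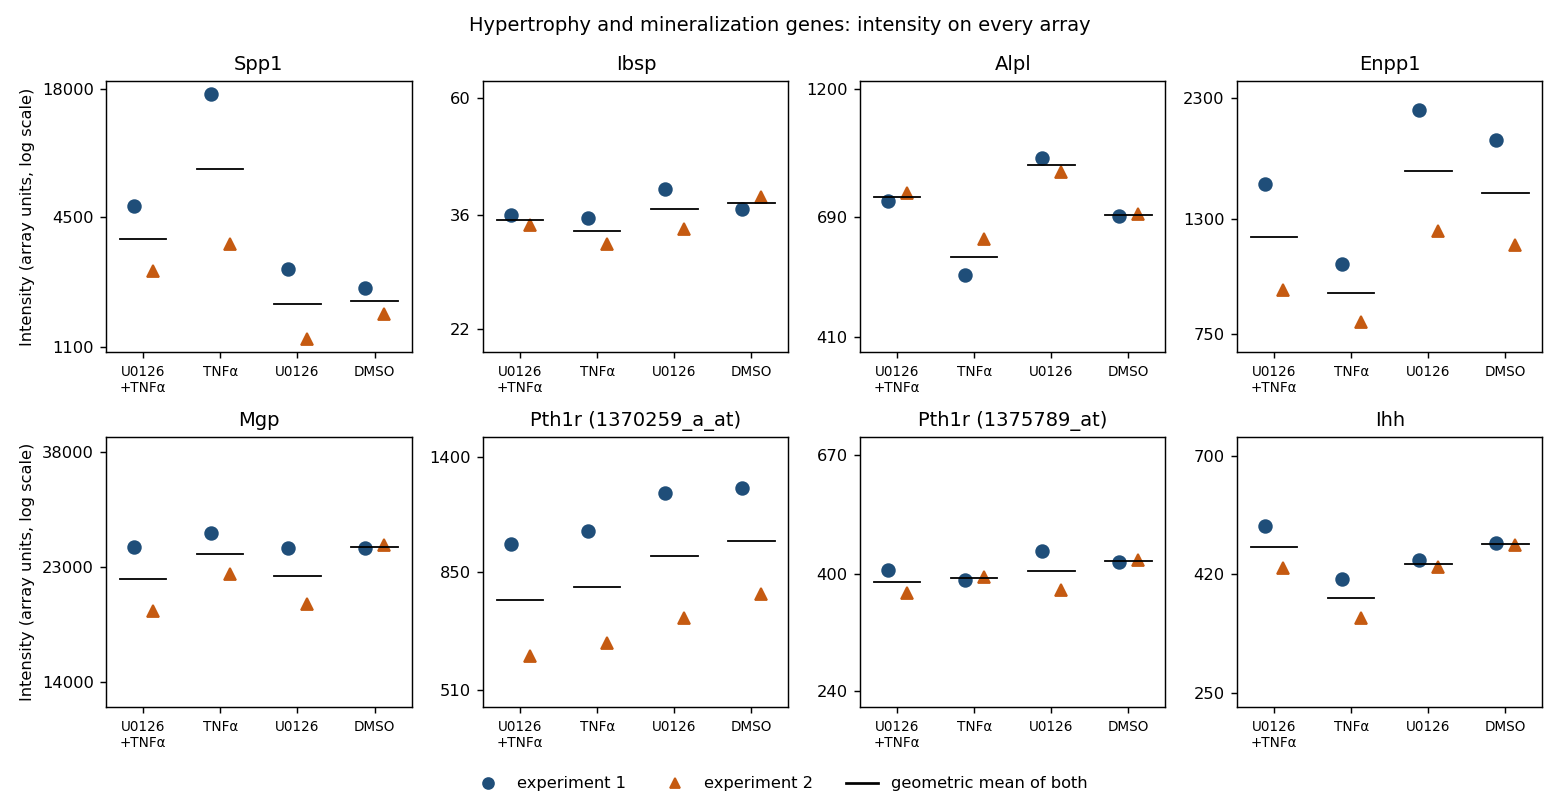
Intensity of the 8 probe sets on each array (log scale, array units; circles experiment 1, triangles experiment 2, bars the geometric mean of both), with the treatments from left to right. Both TNFα values of Spp1 (17126 and 3353) lie above both DMSO values (2068 and 1564), and all Pth1r values of the probe set 1370259_a_at are lower in experiment 2.

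Osteopontin mRNA showed the largest response among the 7 genes. Spp1 (probe set 1367581_a_at) had intensities of 17126 and 3353 with TNFα, against 2068 and 1564 with DMSO. Both TNFα values were above both DMSO values, but the experiments differed in size, with 8.28-fold in experiment 1 and 2.14-fold in experiment 2. The log2 fold change was 2.08 with a standard error (SE) of 0.39 (95% interval 1.16 to 2.99, limma adjusted p = 0.0324). Without the TNFα array of experiment 1 it was 1.32 (adjusted p = 0.0407), without the DMSO array of experiment 1 it was 1.53 (adjusted p = 0.109), and without any 1 array of the U0126 treatments the adjusted p was 0.0665 to 0.0703.

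Markers of macrophages, which also make osteopontin, were read beside this rise. Of 13 such markers 1 rose with TNFα, none fell and 12 did not pass, where 599 of all 14217 genes rose. The one that rose was Cd68, a lysosomal protein, which had 472.2 and 641.0 with TNFα against 215.7 and 433.8 with DMSO (log2 fold change 0.85 ± 0.14 SE, adjusted p = 0.0228). Without either DMSO array or either U0126 array no marker rose, and without either TNFα array 2 did. The summed intensity of the 13 markers was 4390 and 5733 with TNFα, against 3724 and 5349 with DMSO. These ranges overlap across the experiments, but within each experiment the sum was higher with TNFα. The sum is of linear values, so a few bright genes weigh most in it. One is Cd14, with 1660 and 1142 with TNFα against 961.7 and 1110 with DMSO. The median log2 fold change of the 13 markers was -0.07. The pan-leukocyte marker Ptprc lay between 60.6 and 69.74 and the macrophage receptor Csf1r between 167.7 and 243.7 on all arrays. Other markers were brighter or varied more, such as Lyz2, between 517.9 and 1241. Adgre1 had 35.35 and 340.4 with TNFα, against 29.99 and 201.4 with DMSO. Mrc1 had 89.05 and 266.4 with TNFα, against 104.4 and 154.8 with DMSO. With TNFα, Adgre1 and Mrc1 were thus higher in experiment 2, while Cd14 and Spp1 were higher in experiment 1. The part of such cells in the Spp1 values was not tested.

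The pyrophosphate-producing enzyme fell. Enpp1 (1370047_at) had 1048 and 793.5 with TNFα, against 1887 and 1145 with DMSO, with no overlap. The folds were 0.555 and 0.693, and the log2 fold change was -0.69 with a standard error of 0.10 (95% interval -0.94 to -0.44, limma adjusted p = 0.0165). Without the DMSO array of experiment 1 or of experiment 2 the adjusted p was 0.0814 or 0.0719. The receptor for parathyroid hormone and its related protein gave a smaller and less secure change. The leading Pth1r probe set (1370259_a_at) had 1016 and 622.9 with TNFα, against 1225 and 773.0 with DMSO. The treatments overlapped across the experiments, but within them the folds were alike at 0.829 and 0.806. The log2 fold change was -0.29 with a standard error of 0.06 (95% interval -0.44 to -0.14, adjusted p = 0.0485). This p missed the threshold when any 1 of the 8 arrays was left out, at 0.0873 to 0.195. The other Pth1r probe set (1375789_at) had 390.0 and 394.6 with TNFα, against 420.0 and 425.3 with DMSO, and did not pass (log2 fold change -0.11, adjusted p = 0.442).

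Chondrocyte markers fell in the same comparison, 5 of 8 (Acan, Hapln1, Matn1, Cnmd and Col9a1) where 301 of all 14217 genes fell, with a median log2 fold change of -0.44 over the 8 and summed intensities of 89213 to 133262 with TNFα and 113622 to 172819 with DMSO. With 1 array left out at a time, 3 or 4 of them fell, 3 of them without either TNFα array, either array of U0126 with TNFα, or the DMSO array of experiment 1. With no term for the experiment 0 of them fell, and with only the arrays compared 1 did. The part of a general fall of chondrocyte mRNA in the Enpp1 and Pth1r values was not tested.

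Indian hedgehog and alkaline phosphatase had lower values with TNFα in both experiments without passing the test. Ihh (1393271_at) had 410.0 and 346.8 with TNFα, against 479.6 and 476.2 with DMSO, with no overlap (log2 fold change -0.34, 95% interval -0.54 to -0.14, adjusted p = 0.0663). Alpl (1368139_s_at) had 535.8 and 627.0 with TNFα, against 692.2 and 696.4 with DMSO, again with no overlap (log2 fold change -0.26, 95% interval -0.46 to -0.06, adjusted p = 0.118). Both intervals lie below 0, although neither adjusted p passed. Bone sialoprotein mRNA was close to the lowest values of the arrays. Ibsp (1368416_at) had 35.67 and 31.84 with TNFα, against 37.01 and 39.04 with DMSO (log2 fold change -0.17, 95% interval -0.38 to 0.03, adjusted p = 0.252). Mgp (1367568_a_at) was near the top of the range and differed less between TNFα and DMSO than between experiments with TNFα. It had 26676 and 22334 with TNFα, against 25032 and 25332 with DMSO (log2 fold change -0.04, 95% interval -0.29 to 0.20, adjusted p = 0.808).

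**Figure D2:**
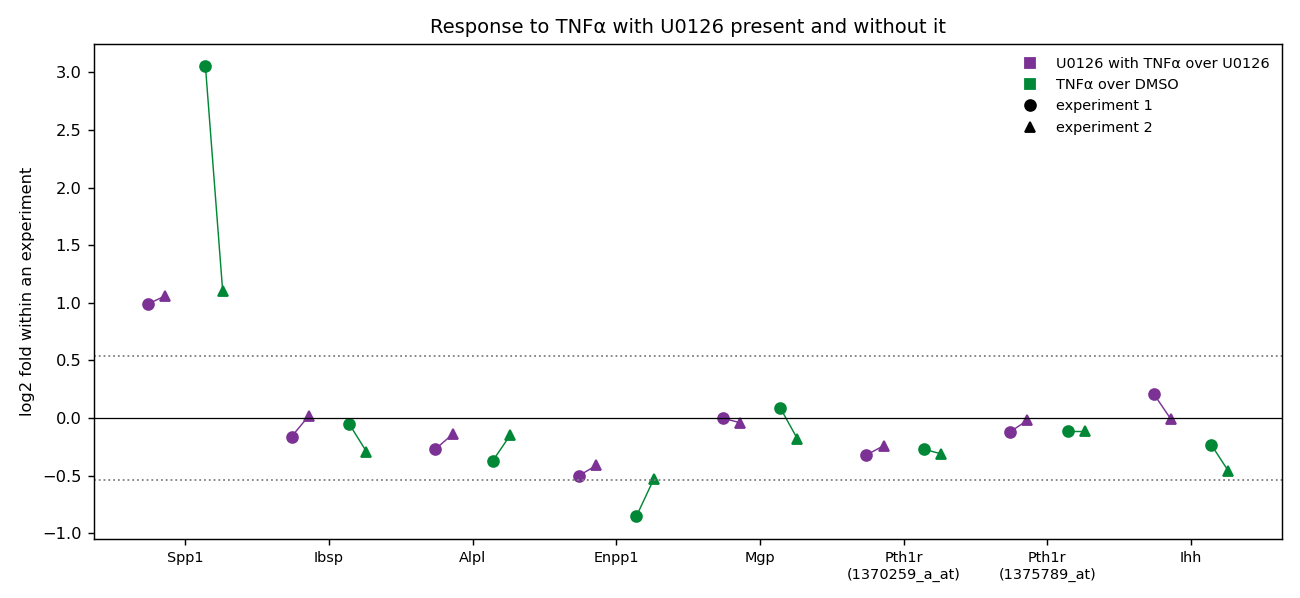
log2 fold within each experiment for the 8 probe sets, U0126 with TNFα over U0126 (purple) left of TNFα over DMSO (green), circles for experiment 1 and triangles for experiment 2, dotted lines at the fold threshold of the methods in either direction. Spp1 responded 1.99-fold and 2.09-fold in the presence of U0126 and 8.28-fold and 2.14-fold in its absence, so the circles are apart and the triangles nearly level.

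The next comparison asked whether the response to TNFα persisted when MEK1/2 was inhibited. None of the 8 probe sets passed in U0126 with TNFα over U0126, where 1.24% of all probe sets did, while 4 of them (Spp1, Alpl, Enpp1 and the leading one of Pth1r) had an unadjusted p under 0.05, against 12.5% of all probe sets. Only Alpl had values that did not overlap, as did 27.5% of all probe sets. Spp1 had 5080 and 2493 with U0126 and TNFα, against 2554 and 1194 with U0126. The values overlapped narrowly, but the rise within the experiments was 1.99-fold and 2.09-fold, so it was nearly the same size in both. The log2 fold change was 1.03 with a standard error of 0.39 (95% interval 0.11 to 1.94, limma adjusted p = 0.338). The fit takes the spread of a gene over all 8 arrays. With only the 4 arrays of these treatments in the fit the adjusted p was 0.00176, and without the TNFα array of experiment 1 or of experiment 2 it was 0.0439. Without any 1 of the other 6 arrays it did not pass, and the adjusted p reached 0.908, while the estimate stayed between 0.90 and 1.16.

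Enpp1 kept the direction it had without U0126. It had 1535 and 925.0 with U0126 and TNFα, against 2172 and 1225 with U0126, folds of 0.707 and 0.755 (log2 fold change -0.45, 95% interval -0.70 to -0.21, adjusted p = 0.12). It passed with only the arrays compared (adjusted p = 0.0234) and without either TNFα array (adjusted p = 0.0342), but not without any 1 of the other 6 arrays, where the adjusted p reached 0.627. The leading Pth1r probe set had 958.5 and 588.9 with U0126 and TNFα, against 1196 and 695.9 with U0126, folds of 0.801 and 0.846 (log2 fold change -0.28, 95% interval -0.43 to -0.13, adjusted p = 0.11). The Pth1r estimates with and without U0126 were thus close, at -0.28 and -0.29.

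Alpl had 736.8 and 762.8 with U0126 and TNFα, against 889.5 and 837.7 with U0126, lower in both experiments and with no overlap (log2 fold change -0.20, adjusted p = 0.389). Ihh had 515.9 and 429.6 with U0126 and TNFα, against 446.0 and 431.8 with U0126, which overlap (log2 fold change 0.10, 95% interval -0.10 to 0.30, adjusted p = 0.687). Mgp had 25128 and 19052 with U0126 and TNFα, against 25045 and 19582 with U0126, a log2 fold change of -0.02 with an interval of -0.27 to 0.23. For Mgp the difference between the experiments was larger than that between the treatments. Ibsp had 36.15 and 34.59 with U0126 and TNFα, against 40.36 and 34.0 with U0126 (log2 fold change -0.07), and the other Pth1r probe set had 405.8 and 367.6 with U0126 and TNFα, against 441.7 and 372.0 with U0126 (log2 fold change -0.07).

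The methods also apply a fold threshold, at which a probe set is TNFα-regulated if both experiments pass it in 1 direction, and MEK/ERK dependent if neither then passes it in U0126 with TNFα over U0126. By this rule Spp1 was TNFα-regulated, as 1 of the 8 probe sets, where 2.02% of all probe sets were, and MEK/ERK independent, since its folds of 1.99 and 2.09 were past the threshold (1.21% of all probe sets passed in that comparison). None of the 8 was TNFα-regulated and MEK/ERK dependent, against 0.445% of all probe sets. Enpp1 narrowly missed this rule, with folds of 0.555 in experiment 1, past the threshold, and 0.693 in experiment 2, short of it. With quantile normalization in place of centring it passed and was then MEK/ERK dependent.

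The effect of the inhibitor in cells that all received TNFα was read next. None of the 8 probe sets passed in U0126 with TNFα over TNFα, where 0.254% of all probe sets did, and 4 of them had an unadjusted p under 0.05 (Spp1, Alpl, Enpp1 and Ihh), against 12.7% of all probe sets. None passed the fold threshold in both experiments, against 0.763% of all probe sets, and values did not overlap for 2 of the 8 (Alpl and Ihh), against 27.8%. Spp1 had 5080 and 2493 with U0126 and TNFα, against 17126 and 3353 with TNFα, lower by the folds 0.297 and 0.744 (log2 fold change -1.09, 95% interval -2.00 to -0.18, adjusted p = 0.318). The difference was larger in experiment 1. With 1 array left out at a time the estimate ranged between -1.85 (adjusted p = 0.0219, without the TNFα array of experiment 2) and -0.34 (without the TNFα array of experiment 1), and the adjusted p reached 0.831. Alkaline phosphatase showed the smallest p of the 8. Alpl had 736.8 and 762.8 with U0126 and TNFα, against 535.8 and 627.0 with TNFα, with no overlap and folds of 1.38 and 1.22 (log2 fold change 0.37, 95% interval 0.17 to 0.57, adjusted p = 0.152). Enpp1 was 1.46-fold and 1.17-fold of TNFα in the presence of U0126, with overlapping values (log2 fold change 0.39, 95% interval 0.14 to 0.63, adjusted p = 0.213), and with 1 array left out at a time the estimate ranged between 0.21 (without the TNFα array of experiment 1) and 0.56 (without that of experiment 2), with adjusted p values of 0.0456 to 0.723. It passed only without the TNFα array of experiment 2. Ihh was 1.26-fold and 1.24-fold of TNFα with no overlap (log2 fold change 0.32, 95% interval 0.12 to 0.52, adjusted p = 0.203). Within both experiments U0126 with TNFα thus gave higher values of Alpl, Enpp1 and Ihh than TNFα did, without passing, and those of the leading Pth1r probe set were 0.943-fold and 0.946-fold.

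**Figure D3:**
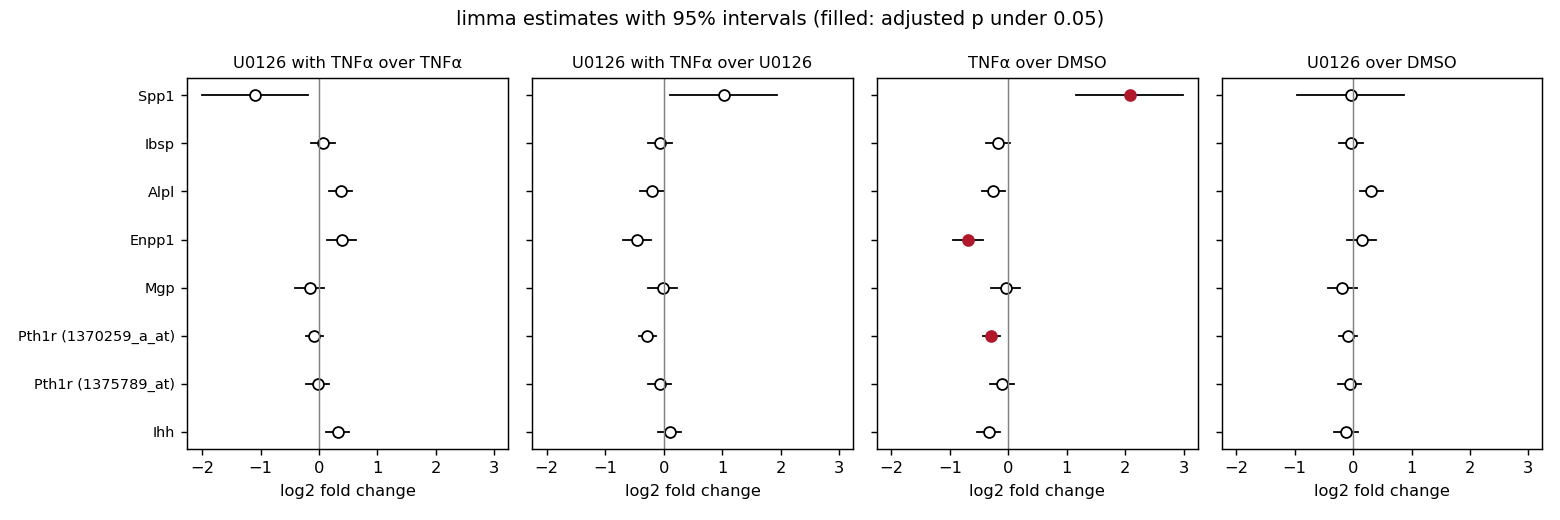
log2 fold change of the 8 probe sets in 4 comparisons, with 95% intervals from limma (filled red points: adjusted p under 0.05, n = 2 arrays a treatment). Filled points occur only for TNFα over DMSO, for Spp1 (2.08), Enpp1 (-0.69) and 1 of the 2 Pth1r probe sets (-0.29), and the Spp1 intervals are the widest in every panel.

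The inhibitor alone was read against DMSO. None of the 8 probe sets passed in U0126 over DMSO, where 0.058% of all probe sets did (13.3% at an unadjusted p under 0.05), and none passed the fold threshold in both experiments (0.29% of all). Alpl had 889.5 and 837.7 with U0126, against 692.2 and 696.4 with DMSO, which is 1.29-fold and 1.20-fold with no overlap (log2 fold change 0.31, 95% interval 0.11 to 0.51, adjusted p = 0.273). Ihh had 446.0 and 431.8 with U0126, against 479.6 and 476.2 with DMSO, with no overlap in the other direction (log2 fold change -0.12, 95% interval -0.32 to 0.08, adjusted p = 0.542). Groups that do not overlap were seen for these 2 of the 8 probe sets and for 29.7% of all probe sets. Spp1 had 2554 and 1194 with U0126, against 2068 and 1564 with DMSO, higher in 1 experiment and lower in the other (log2 fold change -0.04, 95% interval -0.96 to 0.87). For the rest the log2 fold changes lay between -0.19 (Mgp) and 0.15 (Enpp1).

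Genes that ERK signalling is known to induce were read as a check of the inhibitor. Egr1, an immediate early transcription factor, had 1762 and 1490 with U0126 and TNFα and 3923 and 3618 with TNFα, and it had 1263 and 1660 with U0126 and 3571 and 4644 with DMSO. The summed intensity of 8 such genes was 4302 to 4651 with U0126 and TNFα, 7819 to 7848 with TNFα, 4025 to 5588 with U0126 and 7776 to 10920 with DMSO. In this sum neither treatment with U0126 overlapped its counterpart without it, although none of the 8 genes passed the test in either comparison. The sum is of linear values, so bright genes such as Egr1 weigh most in it. Other log2 fold changes are given for U0126 with TNFα over TNFα and then for U0126 over DMSO. They were -1.11 and -1.37 for Etv5 and -0.61 and -0.71 for Dusp6, but 0.02 and -0.07 for Fosl1 and -0.18 and 0.06 for Phlda1.

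Whether U0126 changed the response to TNFα was tested as a difference of 2 responses, which is U0126 with TNFα over U0126 minus TNFα over DMSO. No probe set of all 31042 passed, with 2833 of them (9.13%) at an unadjusted p under 0.05, of which only Ihh is among the 8. The Spp1 difference was -1.05 on the log2 scale with a standard error of 0.54 (95% interval -2.34 to 0.24, limma adjusted p = 0.593). In experiment 1 its response was 1.99-fold with U0126 against 8.28-fold without, and in experiment 2 it was 2.09-fold against 2.14-fold. With 1 array left out at a time the Spp1 difference ranged between -1.80 and -0.29. The smallest p was that of Ihh, with a difference of 0.44 and a standard error of 0.12 (95% interval 0.16 to 0.72, unadjusted p = 0.00757, adjusted p = 0.499). The differences of Enpp1 (0.24, interval -0.11 to 0.58), Alpl (0.06, interval -0.23 to 0.34), the leading Pth1r probe set (0.01, interval -0.20 to 0.22) and Mgp (0.03, interval -0.32 to 0.38) had intervals that include 0.

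By geometric mean, the order of the 4 treatments differed between the genes. For Spp1 it ran, highest first, TNFα, U0126 with TNFα, DMSO and U0126, with overlap between each treatment and the next except U0126 with TNFα and DMSO. For Alpl it ran U0126, U0126 with TNFα, DMSO and TNFα, with no overlap between any neighbours. For Enpp1 it ran U0126, DMSO, U0126 with TNFα and TNFα, and for the leading Pth1r probe set DMSO, U0126, TNFα and U0126 with TNFα, with overlap between all neighbours. For Ihh it ran DMSO, U0126 with TNFα, U0126 and TNFα, and only U0126 and TNFα did not overlap among neighbours. For Mgp it ran DMSO, TNFα, U0126 and U0126 with TNFα, and for Ibsp DMSO, U0126, U0126 with TNFα and TNFα, with overlap between all neighbours.

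Several of the 7 genes differed between the experiments. Spp1 was lower in experiment 2 than in experiment 1 in all 4 treatments, at ratios of 0.491 with U0126 and TNFα, 0.196 with TNFα, 0.468 with U0126 and 0.756 with DMSO. Enpp1 ratios were 0.603, 0.757, 0.564 and 0.607 in the same order of treatments, and those of the leading Pth1r probe set were 0.614, 0.613, 0.582 and 0.631. That Pth1r probe set was thus lower in experiment 2 by more than the fold threshold in every treatment, as were 1.2% of all probe sets. The other Pth1r probe set had ratios of 0.906, 1.01, 0.842 and 1.01, so the 2 probe sets of this gene did not show the same difference between the experiments. Ihh was also lower in experiment 2 in all 4 treatments, at ratios of 0.833, 0.846, 0.968 and 0.993, while Alpl ratios lay between 0.942 and 1.17. Of all probe sets, 27.3% were lower in experiment 2 in all 4 treatments.

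The wider pathways were described with lists of genes, beside 599 genes that rose and 301 that fell with TNFα over DMSO among all 14217. In the loop of Indian hedgehog and parathyroid hormone-related protein, 10 of 15 listed genes were measured, of which 1 rose, 1 fell and 8 did not pass (median log2 fold change -0.02). Boc and Cdon encode related hedgehog co-receptors and went in opposite directions. Boc had 3448 and 5435 with TNFα, against 6804 and 8358 with DMSO (log2 fold change -0.80 ± 0.11 SE, adjusted p = 0.0129). Cdon had 1033 and 724.3 with TNFα, against 721.7 and 462.0 with DMSO (log2 fold change 0.58 ± 0.12 SE, adjusted p = 0.0475). The hedgehog targets Gli1 and Hhip had log2 fold changes of 0.05 and 0.02. These are means of opposite directions, with folds of 0.885 and 1.22 for Gli1 and 0.809 and 1.27 for Hhip in experiments 1 and 2. Cdon no longer passed with quantile normalization or without any 1 array of TNFα, DMSO or U0126 with TNFα. Without the DMSO or the TNFα array of experiment 1 no gene of the list fell, and without the TNFα array of experiment 2 there were 2 that fell.

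Of 19 regulators and markers of hypertrophy 14 were measured, and 1 rose, none fell and 13 did not pass (median -0.15). The one that rose was Mmp13, the collagenase of late hypertrophic cartilage, which is also a common target of inflammatory cytokines. It had 17892 and 5810 with TNFα, against 1177 and 1912 with DMSO, 15.2-fold and 3.04-fold (log2 fold change 2.76 ± 0.57 SE, adjusted p = 0.0433). Like Spp1 it responded more strongly in experiment 1. It lost the call without any 1 array other than the TNFα array of experiment 2, without which 2 genes of the list rose. Type X collagen did not follow it, as Col10a1 had 164.9 and 160.1 with TNFα, against 175.7 and 170.9 with DMSO (log2 fold change -0.09). The angiogenic factor Vegfa (0.70, adjusted p = 0.057) and the pioneer factor Foxa2 (-0.66, adjusted p = 0.0708) missed the threshold.

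Genes of phosphate, pyrophosphate and mineral handling were all measured, 21 of 21, and 2 rose, none fell and 19 did not pass (median -0.16). Slc20a1, a sodium-dependent phosphate importer, had 3399 and 3718 with TNFα, against 1980 and 2293 with DMSO, 1.72-fold and 1.62-fold (log2 fold change 0.74 ± 0.07 SE, adjusted p = 0.00356). Enpp2 encodes autotaxin, a relative of the Enpp1 enzyme that makes lysophosphatidic acid, and had 8801 and 8735 with TNFα, against 4042 and 4439 with DMSO (log2 fold change 1.05 ± 0.09 SE, adjusted p = 0.0025). Enpp2 rose while its family member Enpp1 fell. It also passed in U0126 with TNFα over U0126, with 6508 and 6905 with U0126 and TNFα, against 4643 and 4022 with U0126 (log2 fold change 0.63 ± 0.09 SE, adjusted p = 0.0289). Next by adjusted p, without passing, were Anxa2 (log2 fold change 0.32, adjusted p = 0.0555) and Phex, which is also on the osteoblast list. Phex had the largest change of the list, a lower value with TNFα in both experiments (log2 fold change -1.21, adjusted p = 0.0639). It had 36.12 and 111.3 with TNFα, against 56.41 and 380.1 with DMSO. The pyrophosphate exporter gene Ankh had 1085 and 1305 with TNFα, against 1482 and 1530 with DMSO, and did not pass (log2 fold change -0.34, adjusted p = 0.0652). With 1 array left out at a time, 2 or 3 genes of the list rose, 3 of them without the DMSO or the TNFα array of experiment 2, and 1 fell without the TNFα array of experiment 2. The remaining members of the gene cluster around Spp1 were at low values, with intensities of 188.1 to 255.0 for Mepe, 66.31 to 98.67 for Dmp1 and 259.7 to 297.5 for Dspp, and none passed.

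Of 8 receptors and receptor subunits for osteopontin and bone sialoprotein 7 were measured, and 2 rose, 1 fell and 4 did not pass (median 0.10). Cd44, a hyaluronan receptor that also binds osteopontin, had 1871 and 1079 with TNFα, against 550.8 and 647.3 with DMSO, 3.40-fold and 1.67-fold (log2 fold change 1.25 ± 0.22 SE, adjusted p = 0.027). Itgav, the integrin αv subunit, had 2050 and 1828 with TNFα, against 1175 and 1361 with DMSO (log2 fold change 0.61 ± 0.10 SE, adjusted p = 0.0197). Itgb3, the β3 subunit that pairs with αv, went the other way, with 220.8 and 325.6 with TNFα, against 277.8 and 459.1 with DMSO (log2 fold change -0.41 ± 0.08 SE, adjusted p = 0.0335). These calls were sensitive to single arrays. The Itgb3 call was lost without any 1 of the 8, and no receptor rose without either DMSO array or either array of U0126 with TNFα, and 1 rose without either U0126 array or the TNFα array of experiment 1.

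**Figure D4:**
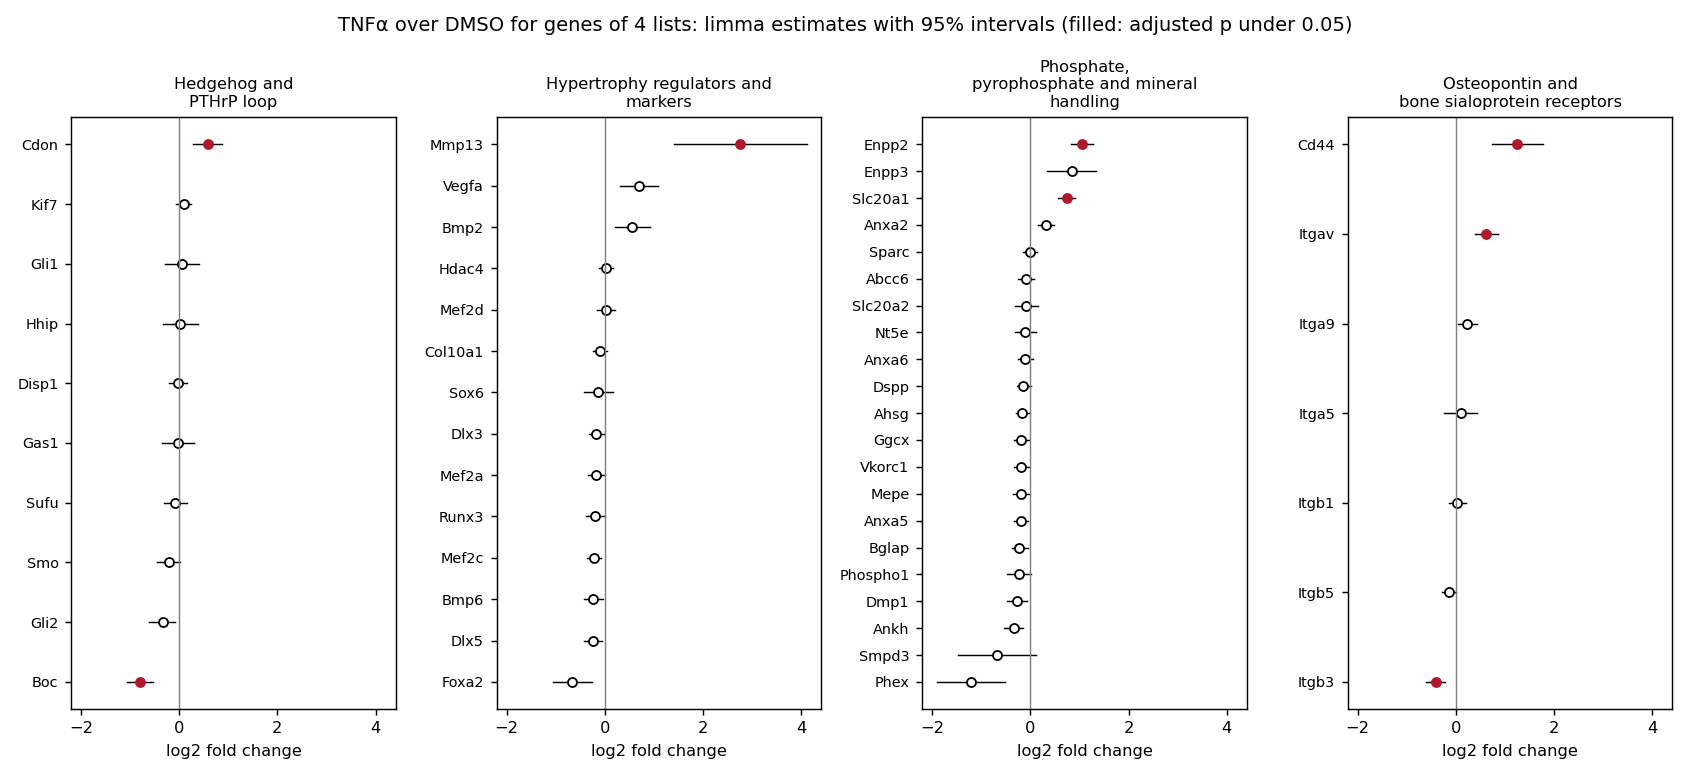
log2 fold change of TNFα over DMSO with 95% limma intervals for the measured genes of 4 lists (n = 2 arrays a treatment, filled red points for an adjusted p under 0.05). In each panel most genes lie near 0, and the points farthest to the right are Cdon (0.58), Mmp13 (2.76), Enpp2 (1.05) and Cd44 (1.25).

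Among 9327 genes, those whose values followed a gene with a called change most closely over the 8 arrays were found by Pearson's r after the mean of each experiment had been removed. This is a description, as the arrays share their treatments and experiments. For Spp1 they were Tgfb1 (r = 0.9916), Cd44 (0.991) and Ctsc (0.9902). Ctsc, the lysosomal protease cathepsin C, was 3.27-fold and 1.61-fold of DMSO with TNFα, again more in experiment 1, while Tgfb1 was only 1.25-fold and 1.09-fold. For Enpp1 they were Golm1 (0.997), Slc38a3 (0.9914) and Hap1 (0.9906), and for Pth1r Clec11a (0.9966), Atp1b2 (0.9917) and Trmt5 (0.9896). Such high values were common, as 488 genes had r above 0.9 with Spp1, 344 with Enpp1 and 165 with Pth1r.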

How the data were processed

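Expression was measured on single-colour Affymetrix RAT230_2.0 arrays, 1 for each of 4 treatments in 2 independent experiments. The deposited values are intensities per probe set on a linear scale. The submitters' processing notes name RMA without a version, while the methods describe GeneSpring and division of each chip by its 50th percentile. That division is not present in the values, whose array medians lie between 365.1 and 378.2, so log2 values were centred on each array's median. Of 31099 probe sets, 57 controls were left out. Names came from the platform annotation, in which 20826 probe sets had 1 symbol, 436 several and 9780 none. All 7 genes matched the RefSeq gene table by Entrez identifier. Where a gene had several probe sets, the leading one had the highest log2 mean over the arrays.

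All 8 arrays were fitted together with limma 3.58.1 (R 4.3.3), with terms for treatment and experiment. There were 3 residual degrees of freedom and 3.913 from the prior, and p values were adjusted over 31042 probe sets in each of 5 comparisons, with a threshold of 0.05. The replicate number in the labels was taken as the experiment, as in the methods, and deviations of arrays with the same number correlated at 0.728 to 0.829. The number of arrays limits the precision, and no detection calls were used. Lists describe genes by their counts, with no test of the list. The named genes are the 7 members, up to 4 genes per list by smallest adjusted p, and defining markers of each list. Further genes of a list were named after their values had been seen. Members and lists were chosen with earlier results of these data known. Alternatives were omission of the experiment term, quantile normalization, values as deposited, removal of the dimmest 40 percent of probe sets, a variance trend, a fit to the compared arrays alone, omission of single arrays, other fold thresholds and the mean over probe sets. Python 3.11.15 with numpy 2.4.6, pandas 2.3.3 and matplotlib 3.10.9 made tables and plots. Promoter stretches are from RefSeq for GRCr8.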

Additional observations from a re-analysis of the deposited data

Results flagged for a closer look

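Ihh values lay in opposite directions with U0126 in the presence and in the absence of TNFα, although neither difference passed the test (limma adjusted p = 0.203 and 0.542). U0126 with TNFα was 1.26-fold and 1.24-fold of TNFα in experiments 1 and 2, while U0126 was 0.930-fold and 0.907-fold of DMSO. The difference between these responses was 0.44 on the log2 scale (standard error 0.12, unadjusted p = 0.00757). It did not pass after adjustment over all probe sets (limma adjusted p = 0.499), and 9.13% of all probe sets had an unadjusted p under 0.05 in this comparison. With 1 array left out at a time the difference ranged between 0.36 and 0.53.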

How the results depend on the processing

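With no replicate block for the experiment, 0 of the 8 probe sets passed for TNFα over DMSO where 3 passed with it, and the adjusted p was 0.459 for Spp1, 0.577 for Enpp1 and 0.841 for Pth1r at unchanged estimates. A fit of only the arrays compared also gave 0 for TNFα over DMSO, and gave 2 (Spp1 and Enpp1) where 0 passed for U0126 with TNFα over U0126. With 1 array left out at a time, 0 to 2 probe sets passed for TNFα over DMSO. Of these, 0 passed without the DMSO array of experiment 1, only Spp1 without that of experiment 2, only Enpp1 without any 1 array of U0126 or of U0126 with TNFα, and both without either TNFα array. The same ranges were 0 to 2 for U0126 with TNFα over TNFα and for U0126 with TNFα over U0126. The Pth1r call was also lost with no centring (adjusted p = 0.057), with a variance trend (0.0539) and as the mean of both probe sets (-0.20, adjusted p = 0.112). By the fold threshold of the methods, TNFα over DMSO gave 2 probe sets at 1.3-fold and with quantile normalization, and 1 to 2 with 1 experiment left out. U0126 with TNFα over U0126 gave 2 at 1.3-fold and 0 at 2-fold, U0126 with TNFα over TNFα gave 1 at 1.3-fold and 0 to 2 with 1 experiment left out, and MEK/ERK dependence gave 1 (Enpp1) with quantile normalization and 0 to 1 with 1 experiment left out. Signs turned only with 1 array left out, and only for estimates that had not passed. For the difference of the TNFα responses the ranges were -0.06 to 0.18 for Alpl, -0.01 to 0.22 for Ibsp, -0.15 to 0.20 for Mgp and -0.03 to 0.06 for Pth1r. For U0126 over DMSO they were -0.59 to 0.50 for Spp1 and -0.15 to 0.08 for Ibsp, for TNFα over DMSO -0.22 to 0.13 for Mgp, and for U0126 with TNFα over U0126 -0.17 to 0.03 for Ibsp and -0.12 to 0.08 for Mgp. List counts were recomputed under the same settings, a choice made after seeing the data. With no replicate block, of the 4 pathway lists only that of mineral handling had a gene that rose (1), and none had a gene that fell, and the 5 chondrocyte markers that fell became 0 (1 with only the arrays compared). The cause of these changes was not tested. Values at the low end of the arrays, such as those of Ibsp, and near the top, such as those of Mgp, limit what can be read from them.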
